A study of Mus musculus with 6 samples.

Results

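The 42 genes described here encode the COPI and COPII vesicle coats, the small GTPases that recruit them, and the cargo receptors, SNAREs and tethers that work between the endoplasmic reticulum (ER) and the Golgi. They were chosen by gene symbol from a list written for this pathway, with earlier results of these data known, and all 42 were found among the 24346 gene symbols of the deposited tables. RNA came from luminal cells, the secretory epithelium lining the prostate glands, of C57BL/6 mice aged 4 months, isolated by fluorescence-activated cell sorting (the sources used here do not give the sort markers). Libraries titled WT (3) came from wild-type littermates, and libraries titled PB (3) from mice carrying a mouse Csf-1 transgene driven from a rat probasin promoter, a promoter of the prostate epithelium. The labels call the second genotype over-expression of CSF1, and they name no other allele or agent in either group. The titles begin with 3/16, 5/16 or 8/16 in each group, which the labels do not explain, and 3, 5 and 8 are used here as replicate numbers. Nothing in the labels says that libraries came from separate animals, so the p-values cover the spread among these libraries alone, which may be technical.

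Secreted and membrane proteins leave the ER in vesicles coated by COPII. Preb, the exchange factor also called Sec12, loads the GTPase Sar1 with GTP, Sar1 brings in the inner Sec23 and Sec24 subunits that bind cargo, and the outer Sec13 and Sec31 subunits close the cage. COPI vesicles, recruited by Arf GTPases as a preassembled complex called coatomer, carry escaped ER proteins and receptors back from the Golgi. Cells that secrete large amounts of protein, such as prostate luminal cells, depend on this cycle.

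Expression is given as FPKM, fragments per kilobase of transcript scaled to the mapped fragments of a library, summed over the transcripts of a gene, so levels of different genes are compared per length. Changes are log2 changes of FPKM + 1, PB minus WT, ± SE, tested with limma across 10951 genes, and a gene passed at an adjusted p (Benjamini-Hochberg) under 0.05. The coverage per FPKM, which grows as more is sequenced, ranged from 2.72 to 3.502 in WT and 4.17 to 5.01 in PB, and the tables give no fragment totals. For the pathway's transcripts above 1 FPKM, the median half-width of the authors' confidence interval was 3.01% to 3.797% of the value per library. For 10 of the 42 genes an exon shares positions with another gene on the opposite strand, and the kits named do not mark strand, so such reads are not separated. Of these, Copa (with Ncstn), Copg2 (Mest), Sec24c (6230400D17Rik) and Arf5 (Gcc1) are named here and the others beside their values.

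Copz2, Tmed3, Kdelr3, Lman1 and Mcfd2 showed the largest falls in PB. Of the 42 genes, all of which passed the filter of a mean of 1 FPKM, 17 fell, 1 rose and 24 did not pass the test. Among all tested genes, 7.47% were called lower, 24.9% higher and 32.4% either way. The median log2 change was -0.39 over the 42 genes and 0.17 over all tested genes. In 22 of the 42, every PB library lay below every WT library, against 13.1% of all tested genes, and in 1 every PB library lay above every WT library, against 34.7%. By class, the genes called lower were 6 of 7 lectin, KDEL and other cargo receptors, 3 of 4 SNARE, tether and Yip-family genes, 4 of 12 COPII genes, 2 of 7 p24 cargo receptors, 2 of 9 COPI genes and 0 of 3 Arf GTPases. With median-ratio or quantile scaling the SNARE, tether and Yip class had 4 of 4 lower and the lectin and KDEL class 6 of 7. COPII genes had 9 of 12 lower with either scaling, and Arf GTPases 0 of 3. With median-ratio and quantile scaling, COPI genes had 6 of 9 and 4 of 9 lower, and p24 genes 4 of 7 and 3 of 7. In these counts the gap between the cargo receptor class and the coat classes was thus smaller. The difference between classes was not tested.

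These counts moved with the scaling of the libraries and with single libraries. With median-ratio scaling 29 were lower and 1 was higher, and with quantile normalization 26 and 0. Among all tested genes, median-ratio scaling gave 1762 of 10919 lower and 2036 higher, and quantile normalization 2362 of 10951 lower and 1694 higher. Without WT replicate 5, WT replicate 8 or PB replicate 3, the numbers of the 42 lower were 9, 11 and 10. The numbers over all tested genes were then 478 of 11056, 526 of 11034 and 623 of 10874. The median over all tested genes was -0.029 and -0.16 under the median-ratio and quantile scalings, and 76.95% of all called genes were higher on the deposited scale against 53.6% and 41.8%. Relative to the median of all genes, the median of the 42 was thus lower under each of these 3 scalings.

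**Figure D1:**
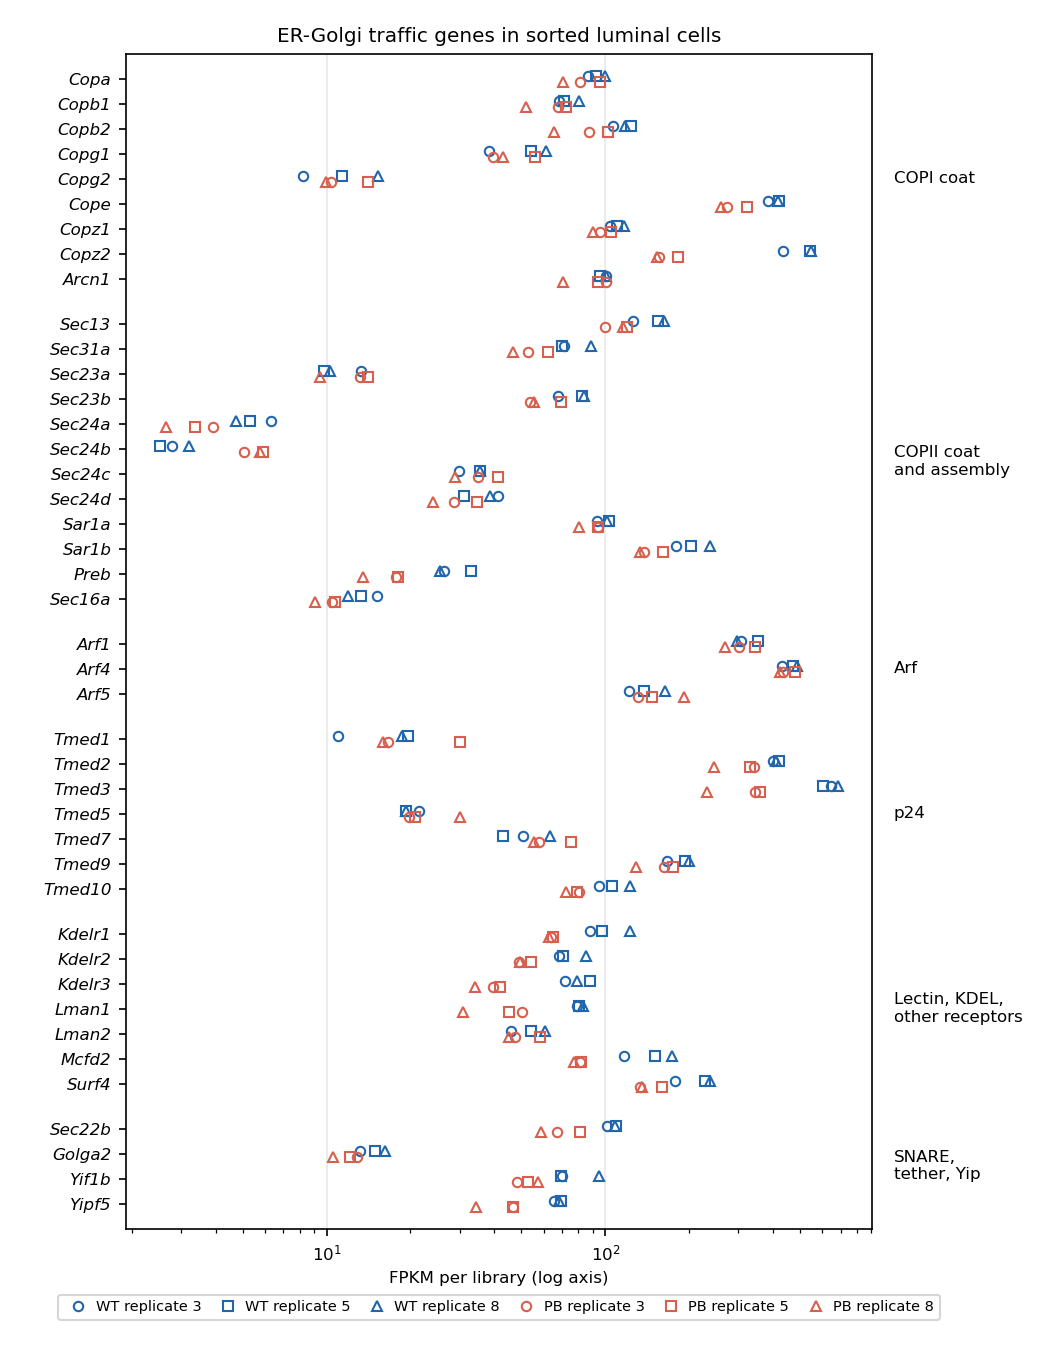
FPKM of each of the 42 genes in each library, on a log axis, grouped by class. Blue symbols are the 3 WT and red symbols the 3 PB libraries, and the symbol shape gives the replicate number. Copz2, Tmed3, Kdelr3, Lman1 and Mcfd2 show PB libraries below all WT libraries, and the Arf genes overlap.

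Markers of other cells moved with the groups, and their part in the results was not tested. All 8 macrophage markers (Ptprc, Cd68, Adgre1, Lyz2, C1qa, C1qb, Aif1 and Tyrobp) rose, with a summed level of 15.6 to 97.9 FPKM in WT and 611 to 2485 FPKM in PB, the highest in PB replicate 8. Of 8 fibroblast and smooth muscle markers 7 were tested and rose, with sums of 95.7 to 110.0 FPKM in WT and 452 to 693 FPKM in PB. Most of these sums was Dcn alone, at 88.2 to 102 FPKM in WT and 394 to 522 FPKM in PB. Of 4 basal markers 3 were tested and rose, with sums of 26.9 to 39.96 FPKM in WT and 393 to 526 FPKM in PB. Krt15 made up most of them, at 16.1 to 27.9 FPKM in WT and 304 to 356 FPKM in PB. Of 4 endothelial markers 2 were tested and rose, with sums of 1.08 to 2.04 FPKM in WT and 7.35 to 12.4 FPKM in PB, and Aif1 was listed at 0 in WT replicate 3. Of 9 luminal markers 2 rose, 1 fell (Hoxb13) and 6 did not pass, and the keratins of the label were high in both groups. Krt18 was at 2055 to 2666 FPKM in WT and 1735 to 2660.5 FPKM in PB, Krt8 did not pass (0.36 ± 0.25, adjusted p = 0.309), and the epithelial genes Epcam (0.55 ± 0.13) and Cdh1 (1.06 ± 0.15) rose in PB. Of the 17 genes that fell, 14 had their lowest PB value in PB replicate 8 and 3 in PB replicate 3. This was not particular to them. The genes that did not pass were also lowest in PB replicate 8, apart from Copg1, Sec13, Sec23b, Arf5 and Tmed5, which were lowest in PB replicate 3. The share over all tested genes was not computed. In such bulk samples, fewer cells of a type and less RNA per cell cannot be told apart.

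Receptors that sort soluble cargo formed the class with the lowest median, -0.66. The 3 KDEL receptors bind the C-terminal retrieval signal of ER chaperones in the Golgi and return them in COPI vesicles, and all 3 fell. Kdelr3 (chr15:79516408-79527739, plus strand, GRCm38) stood at 71.4, 87.8 and 78.8 FPKM in the WT libraries and 39.7, 41.9 and 34.1 FPKM in the PB libraries, listed as replicates 3, 5 and 8 here and below. Its groups did not overlap, and the mean in PB was 48.6% of that in WT (-1.02 ± 0.14, adjusted p = 0.000881). Kdelr1 was at 88.1, 97.4 and 123 FPKM in WT and 64.1, 64.9 and 62.9 FPKM in PB (-0.66 ± 0.15, adjusted p = 0.00935). Kdelr2 was at 68.4, 70.8 and 84.9 FPKM in WT and 49.1, 54.3 and 49.5 FPKM in PB (-0.54 ± 0.13, adjusted p = 0.0153), and neither gene's groups overlapped. Summed over the 3 receptors, the level went from 257 ± 29.3 to 153 ± 7.25 FPKM (SD, 3 libraries each).

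The Kdelr3 share of that sum was 31.3, 34.3 and 27.5% in the WT libraries and 25.96, 26 and 23.3% in the PB libraries. The log2 ratio of Kdelr3 to Kdelr2 differed by -0.48 ± 0.14 (SE), exact permutation p = 0.1, 0.15 after adjustment over the 6 paralog ratios examined. With 3 libraries against 3, 0.1 is the smallest p that this two-sided test allows, so no ratio could pass. Kdelr3 and Ddx17, on the opposite strand, share exon positions. Kdelr2 did not pass without PB replicate 3 (adjusted p = 0.0533).

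Lman1 (also called ERGIC-53) is a mannose-binding lectin that carries glycoproteins out of the ER, and Mcfd2 is its calcium-binding partner, with which it exports coagulation factors. Lman1 was at 79.02, 80.3 and 83.4 FPKM in WT and 50.1, 45.2 and 30.9 FPKM in PB, and Mcfd2 (chr17:87254443-87265947, minus strand) at 116, 150.2 and 174 and 81.2, 81.8 and 76.9 FPKM. Both partners fell, to 51.95% and 54.5% of the WT mean (-0.96 ± 0.18, adjusted p = 0.00457 and -0.85 ± 0.16, adjusted p = 0.00436), with no overlap between the groups. Surf4, which exports soluble secreted proteins from the ER, was at 178, 228 and 237 FPKM in WT and 133, 160.0 and 135 FPKM in PB (-0.58 ± 0.15, adjusted p = 0.0194), and its exons overlap those of Surf2 on the opposite strand. Lman2, a lectin of the early secretory pathway related to Lman1, was at 45.97, 54.3 and 60.8 FPKM in WT and 47.3, 58.1 and 44.9 FPKM in PB and did not pass (-0.097 ± 0.16, adjusted p = 0.683). The Lman2 libraries overlapped between the groups, in contrast to the other 6 receptors. Surf4 did not pass without WT replicate 5 (0.0836), WT replicate 8 (0.0627) or PB replicate 3 (0.0677), adjusted p in parentheses.

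Among the p24 proteins, transmembrane receptors that cycle in both coats and sort GPI-anchored and other cargo, the most abundant member changed most. Tmed3 (chr9:89699203-89705043, minus strand) was at 644, 601 and 680.4 FPKM in WT and 345, 357 and 232 FPKM in PB, 48.6% of the WT mean (-1.06 ± 0.18, adjusted p = 0.00247). In WT it had the highest level of all 42 genes, and every PB library lay below every WT library. Tmed10 fell as well, from 94.8, 106 and 122 FPKM to 80.2, 78.8 and 72.4 FPKM (-0.47 ± 0.14, adjusted p = 0.0287). Tmed2 was at 400.1, 420.4 and 409 FPKM in WT and 341, 331 and 245 FPKM in PB with no overlap (-0.44 ± 0.15, adjusted p = 0.0575), and it passed with the replicate number as a block (adjusted p = 0.0455). The other 4 p24 genes did not pass, and their log2 changes were -0.27 for Tmed9, 0.20 for Tmed5, 0.26 for Tmed7 and 0.32 for Tmed1. Tmed1 shares exon positions with Dnm2 on the opposite strand and spread widely, from 10.96 to 19.6 FPKM in WT and from 16.01 to 30.2 FPKM in PB. Tmed10 did not pass without WT replicate 5 (0.0887), WT replicate 8 (0.0789), PB replicate 3 (0.0611), PB replicate 5 (0.0721) or PB replicate 8 (0.0703).

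In the COPI coat 2 of 9 genes fell, those for an epsilon and a zeta subunit. Copz2 (chr11:96849876-96861202, plus strand) encodes a zeta subunit, the smallest of coatomer, and shares this place with its paralog Copz1. Copz2 was at 434, 540.3 and 546 FPKM in WT and 155, 181 and 153 FPKM in PB, 32.2% of the WT mean (-1.63 ± 0.14, adjusted p = 9.19e-05). Its fall was the largest of the 42, and 89 of the 10951 tested genes had a lower log2 change. Copz1 was at 104, 109.7 and 117 FPKM in WT and 95.8, 105 and 90.5 FPKM in PB and did not pass (-0.18 ± 0.12, adjusted p = 0.296). Copz1 passed as lower with median-ratio scaling (-0.41, adjusted p = 0.0133) and with quantile normalization (-0.38, adjusted p = 0.0259). In WT, Copz2 thus held 80.7, 83.1 and 82.4% of the summed zeta level, and in PB 61.8, 63.4 and 62.8%. The log2 ratio of Copz2 to Copz1 differed by -1.45 ± 0.076 (exact permutation p = 0.1, 0.15 adjusted), and the summed zeta level went from 617 ± 68.7 to 260.2 ± 23.05 FPKM. The 250 bases before its start site are given for the gene that fell most (RefSeq, GRCm38.p6, 5′ to 3′ on the strand of the gene, no capitals):
Copz2, chr11:96849626-96849875, plus strand: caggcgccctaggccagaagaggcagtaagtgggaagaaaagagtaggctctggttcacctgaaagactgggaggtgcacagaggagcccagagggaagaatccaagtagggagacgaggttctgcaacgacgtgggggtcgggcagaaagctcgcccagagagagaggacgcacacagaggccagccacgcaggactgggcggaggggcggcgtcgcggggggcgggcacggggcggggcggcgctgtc

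Cope, the epsilon subunit, was at 382, 419 and 415 FPKM in WT and 272, 322 and 260.3 FPKM in PB (-0.51 ± 0.13, adjusted p = 0.0164), and its groups did not overlap. The other COPI genes showed smaller differences. Copb2, the beta-prime subunit, was at 106, 124 and 117 FPKM in WT and 87.1, 102 and 65.5 FPKM in PB, without overlap and without passing (-0.46 ± 0.17, adjusted p = 0.07296). Copa, Copb1 and Arcn1, the alpha, beta and delta subunits, had log2 changes of -0.17 ± 0.15, -0.20 ± 0.16 and -0.17 ± 0.16 and adjusted p-values of 0.407, 0.362 and 0.436. The gamma subunit Copg1 was at 38.2, 53.9 and 61.4 FPKM in WT and 39.5, 56.1 and 42.9 FPKM in PB (-0.13 ± 0.21), and its paralog Copg2 at 8.201, 11.4 and 15.3 and 10.4, 14.1 and 9.93 FPKM (0.0085 ± 0.23). Both overlapped between the groups. Copg2 held 17.7, 17.4 and 19.9% of the summed gamma level in WT and 20.9, 20.1 and 18.8% in PB. The log2 ratio of Copg2 to Copg1 differed by 0.14 ± 0.082 (exact permutation p = 0.2, 0.2 adjusted), and like every paralog ratio here it could not pass. In WT, mean levels of the COPI genes ran from 11.6 FPKM (Copg2) to 507 FPKM (Copz2). Cope did not pass without WT replicate 5 (0.0732) or PB replicate 3 (0.0611).

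**Figure D2:**
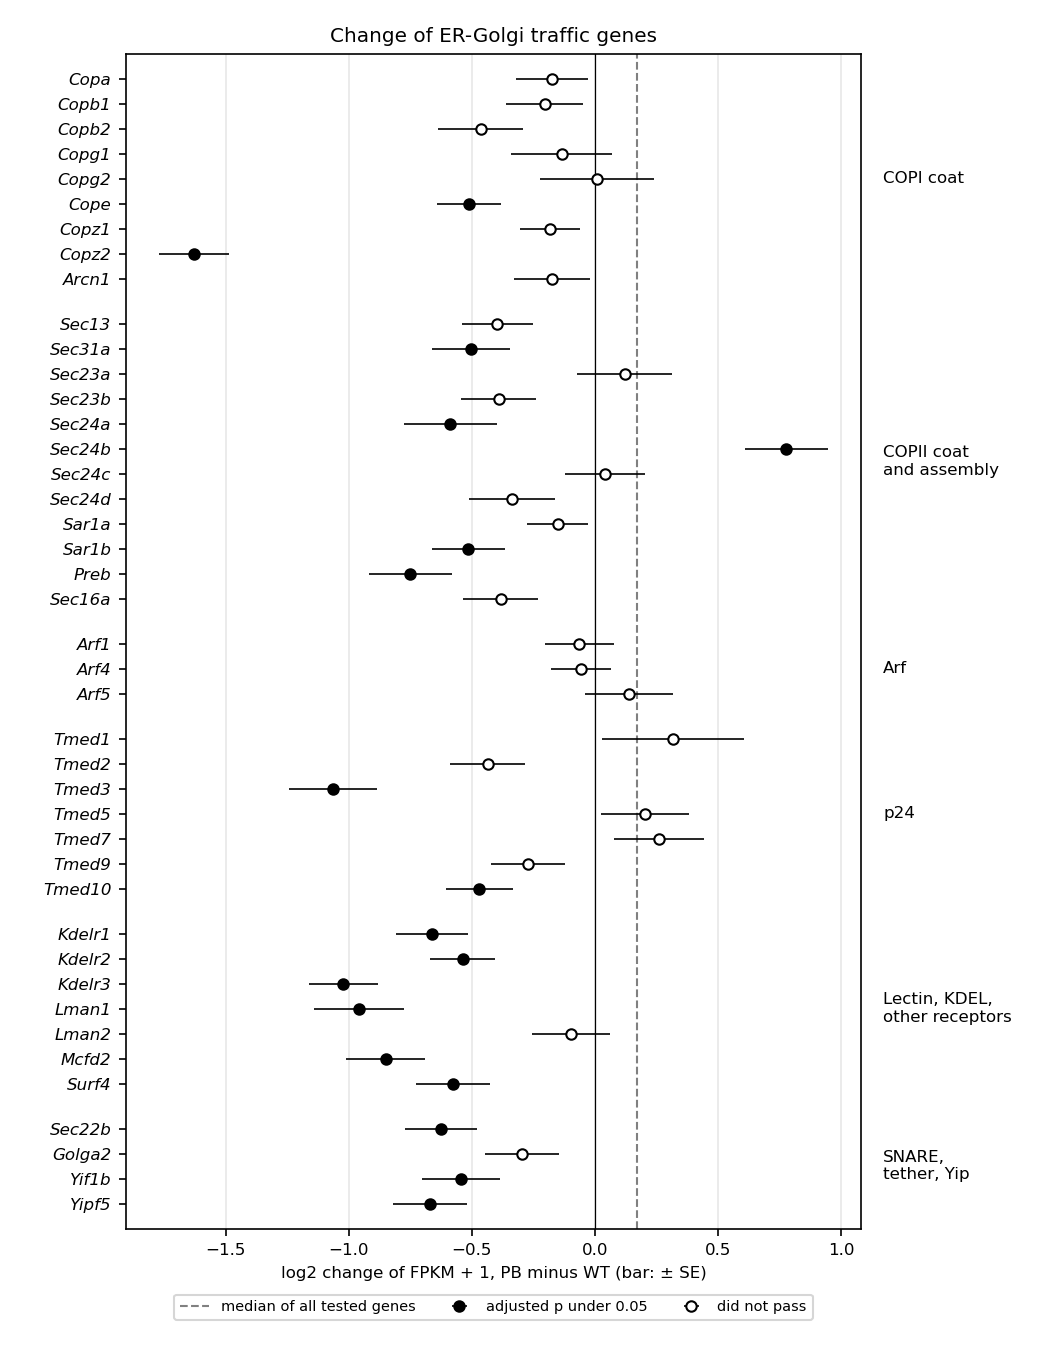
Log2 change of FPKM + 1, PB minus WT, with ± SE bars for each of the 42 genes, by class. Filled points passed an adjusted p of 0.05, and the dashed line is the median of all tested genes at 0.17. Copz2 lies farthest left at -1.63, and Sec24b at 0.78 is the filled point on the right.

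Of the 12 COPII genes 4 fell and 1 rose. Preb (chr5:30951667-30960327, minus strand), which starts coat assembly by activating Sar1, was at 26.3, 33.1 and 25.6 FPKM in WT and 17.7, 18.1 and 13.5 FPKM in PB (-0.75 ± 0.17, adjusted p = 0.00981), and an exon overlaps Abhd1 on the opposite strand. Sar1b, the GTPase needed for export of large lipoprotein cargo in other tissues, was at 179, 203 and 238 FPKM in WT and 137, 161 and 133 FPKM in PB (-0.51 ± 0.15, adjusted p = 0.0279). For both genes every PB library lay below every WT library. The paralog Sar1a was at 93.2, 103 and 101 FPKM in WT and 93.8, 93.8 and 80.5 FPKM in PB and did not pass (-0.15 ± 0.12, adjusted p = 0.395). Sar1a passed as lower with median-ratio scaling (adjusted p = 0.0231) and with quantile normalization (adjusted p = 0.0482). The Sar1b share of the pair was 65.8, 66.3 and 70.1% in WT and 59.4, 63.2 and 62.3% in PB, and the log2 ratio differed by -0.36 ± 0.11 (exact permutation p = 0.1, 0.15 adjusted). Sec16a, the scaffold of ER exit sites, was at 15.2, 13.3 and 11.96 FPKM in WT and 10.5, 10.7 and 9.07 FPKM in PB and did not pass (-0.38 ± 0.15, adjusted p = 0.09).

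Of the outer cage, Sec31a was at 70.8, 69.8 and 88.97 FPKM in WT and 52.8, 62.1 and 46.5 FPKM in PB (-0.50 ± 0.16, adjusted p = 0.04103), and with the replicate number as a block it did not pass (adjusted p = 0.0595). Sec13, also a nuclear pore protein, was at 125, 154 and 163 FPKM in WT and 99.6, 119 and 115 FPKM in PB (-0.40 ± 0.14, adjusted p = 0.0689), and it passed with that block (adjusted p = 0.0315). Neither gene's groups overlapped. Sec23, the activator of Sar1's GTPase, came mostly from Sec23b, at 67.8, 82.2 and 84.1 FPKM in WT and 53.6, 69.4 and 55.3 FPKM in PB (-0.39 ± 0.15, adjusted p = 0.0843). Sec23a was at 13.2, 9.77 and 10.3 and 13.2, 14.1 and 9.47 FPKM (0.12 ± 0.19, adjusted p = 0.675) and held 16.3, 10.6 and 10.9% of the Sec23 sum in WT and 19.7, 16.9 and 14.6% in PB. These Sec23a shares overlapped, and the log2 ratio of Sec23a to Sec23b differed by 0.51 ± 0.26 (exact permutation p = 0.2, 0.2 adjusted).

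Sec24 paralogs bind different cargo signals, and 2 of them moved in opposite directions. Sec24b (chr3:129983185-130060907, minus strand) was at 2.79, 2.53 and 3.202 FPKM in WT and 5.04, 5.94 and 5.76 FPKM in PB, the sole rise among the 42 (0.78 ± 0.17, adjusted p = 0.00818). Sec24a, its closest paralog, was at 6.31, 5.33 and 4.74 FPKM in WT and 3.902, 3.37 and 2.66 FPKM in PB (-0.59 ± 0.19, adjusted p = 0.0428). In WT Sec24a lay above Sec24b in every library, and in PB below it in every library. Both were minor forms, since Sec24c at 33.7 ± 3.25 FPKM and Sec24d at 36.9 ± 5.26 FPKM made up most of the WT sum. The Sec24b share was 3.48, 3.39 and 3.91% in WT and 6.95, 6.99 and 9.37% in PB, while the Sec24 sum was 80.3, 74.5 and 81.9 FPKM in WT and 72.5, 84.98 and 61.5 FPKM in PB with overlap. Sec24c was at 29.97, 35.6 and 35.5 FPKM in WT and 34.9, 41.2 and 28.97 FPKM in PB (0.043 ± 0.16, adjusted p = 0.871). Sec24d was at 41.2, 31.04 and 38.4 FPKM in WT and 28.7, 34.5 and 24.1 FPKM in PB (-0.34 ± 0.17, adjusted p = 0.179). Both overlapped between the groups and did not pass, and the log2 ratio of Sec24d to Sec24c differed by -0.38 ± 0.19 (exact permutation p = 0.1, 0.15 adjusted). Sec24d passed as lower with median-ratio scaling (adjusted p = 0.0313) and with quantile normalization (adjusted p = 0.0411). Sec24b did not pass with quantile normalization (adjusted p = 0.0932) and could not be tested under a filter of 5 FPKM. Without 1 library, Sec24a lost its call for WT replicate 3 (0.131), WT replicate 5 (0.1098), WT replicate 8 (0.0561), PB replicate 5 (0.0894) or PB replicate 8 (0.107), Sar1b for WT replicate 5 (0.0846), WT replicate 8 (0.0799), PB replicate 3 (0.08596) or PB replicate 8 (0.0689) and Sec31a for WT replicate 3 (0.0547), WT replicate 5 (0.0751), WT replicate 8 (0.117), PB replicate 3 (0.1001) or PB replicate 8 (0.107), adjusted p in parentheses. With no filter on low values, Sec24a (0.0813) and Sec31a (0.0641) also lost theirs. The bases before the Sec24b start site are given in the same way for the gene that rose:
Sec24b, chr3:130060908-130061157, minus strand: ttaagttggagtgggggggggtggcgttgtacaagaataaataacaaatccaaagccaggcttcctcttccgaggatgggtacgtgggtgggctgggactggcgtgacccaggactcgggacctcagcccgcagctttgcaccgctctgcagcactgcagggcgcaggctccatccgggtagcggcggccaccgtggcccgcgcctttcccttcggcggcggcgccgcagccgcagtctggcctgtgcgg

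**Figure D3:**
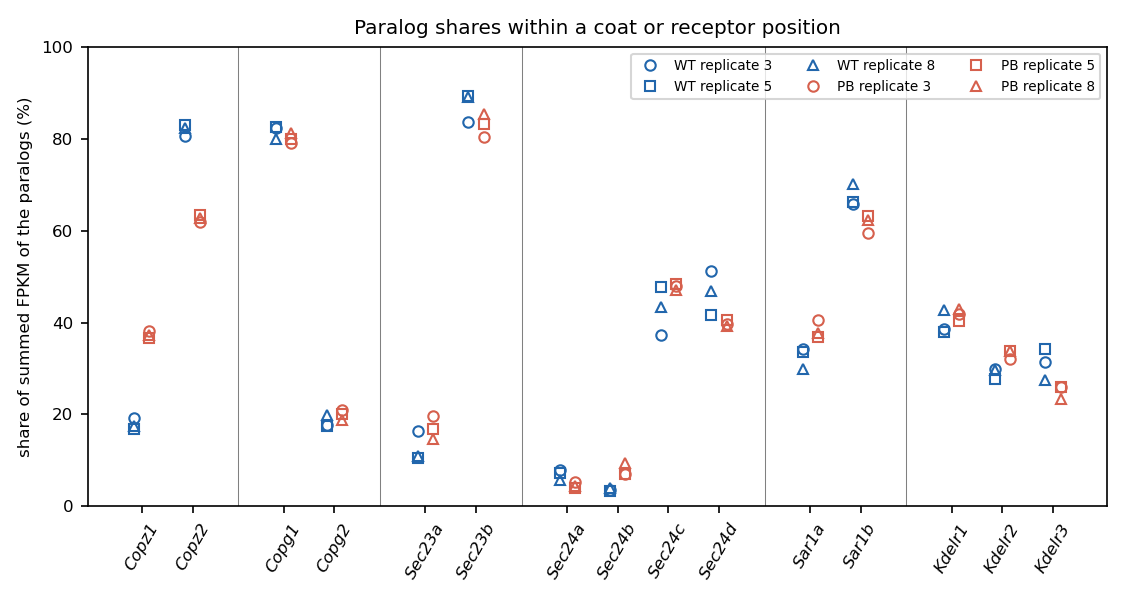
Share of each paralog in the summed FPKM of its subunit or receptor position, in percent, for each library. Blue symbols are WT, red symbols PB, and shapes give replicate numbers. The Copz2 share is 80.7, 83.1 and 82.4% in the WT libraries and 61.8, 63.4 and 62.8% in the PB libraries, and the Copg1 and Copg2 shares overlap.

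Arf GTPases recruit coatomer and start COPI budding, and none of the 3 chosen here passed. Arf4 was the most abundant, at 430.1, 470.0 and 487 FPKM in WT and 433, 479 and 422 FPKM in PB (-0.058 ± 0.12, adjusted p = 0.759). Arf1 was at 306, 352 and 297 and 302, 345 and 269 FPKM (-0.064 ± 0.14, adjusted p = 0.767) and Arf5 at 122, 137 and 164 and 130.5, 147 and 191 FPKM (0.14 ± 0.18, adjusted p = 0.596). All 3 overlapped between the groups, so a change was not detected beyond these errors. Of 11 tested genes for Arf regulators and other Arfs outside the 42, 3 rose, all of them Arf genes. Over all tested genes, 24.9% were called higher. Arf2 was at 5.02, 4.99 and 5.55 FPKM in WT and 15.5, 15.9 and 20.6 FPKM in PB (1.56 ± 0.16, adjusted p = 0.000206), and Arf6, which acts at the plasma membrane, at 65.5, 55.6 and 75.4 and 112, 113 and 120.2 FPKM (0.81 ± 0.14, adjusted p = 0.00288). Arf3 rose from 28.4 ± 1.598 to 39.2 ± 4.68 FPKM (adjusted p = 0.0385), a call that did not hold with the replicate block (0.0519), with median-ratio scaling (0.196) or with quantile normalization (0.202). It also did not hold without WT replicate 3 (0.0884), WT replicate 5 (0.113), WT replicate 8 (0.0581), PB replicate 3 (0.132) or PB replicate 5 (0.101).

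The fusion and membrane proteins had a median log2 change of -0.58. Sec22b, a SNARE of vesicle fusion between the ER and the Golgi, was at 102, 109 and 108 FPKM in WT and 67.3, 81.3 and 58.8 FPKM in PB (-0.62 ± 0.15, adjusted p = 0.0114). The Yip-family proteins Yipf5 and Yif1b span the membranes of the early secretory pathway. Yipf5 was at 65.2, 69.2 and 68.3 FPKM in WT and 46.5, 46.6 and 34.4 FPKM in PB (-0.67 ± 0.15, adjusted p = 0.00973), and Yif1b at 69.98, 69.3 and 94.5 and 48.1, 52.6 and 57.5 FPKM (-0.54 ± 0.16, adjusted p = 0.0298). Golga2, the cis-Golgi tether GM130, was at 13.2, 14.9 and 16.2 FPKM in WT and 12.8, 12.1 and 10.5 FPKM in PB and did not pass (-0.30 ± 0.15, adjusted p = 0.171). In all 4 genes the groups did not overlap. Exons of Yif1b and Golga2 overlap genes on the opposite strand. Sec22b did not pass without WT replicate 5 (0.0506), and Yif1b not without WT replicate 5 (0.0513), WT replicate 8 (0.0746), PB replicate 3 (0.0971) or PB replicate 5 (0.0779) nor without a filter on low values (0.0503), adjusted p in parentheses.

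Outside the 42, another 7 lists, with 111 genes in the tables, hold other genes of the pathway and transcription factors of secretory pathway genes. These genes also leaned to lower calls. Of the 103 that were tested, 26 fell, 7 rose and 70 did not pass, with a median of -0.23. The shares over all tested genes, for each list below as well, were 7.47% lower and 24.9% higher. Among the other p24, lectin, ERGIC and Yip-family genes 10 of 16 fell and 0 rose. The largest falls there were Lman1l (-1.62 ± 0.37), at 1.58, 5.12 and 3.93 FPKM in WT and 0.0629, 0.249 and 1.02 FPKM in PB, Yipf2 (-0.77 ± 0.23) and Tvp23b (-0.69 ± 0.16). Of 15 SNARE genes and partners 5 fell and 0 rose, led by the Sec1-family gene Scfd2, which fell from 7.81 ± 0.629 to 3.14 ± 0.444 FPKM (-1.09 ± 0.17, adjusted p = 0.001504), the SNARE gene Bet1l (-0.64 ± 0.19) and the Sec1-family gene Scfd1 (-0.58 ± 0.14). Of 12 ER exit site genes 3 fell, namely Tmem39a (-0.60 ± 0.15), the cargo receptor gene Mia3 (-0.57 ± 0.18) and Tfg (-0.41 ± 0.13), and 2 rose, Cnih4 (0.83 ± 0.16) and Pdcd6 (0.79 ± 0.16). Some of these calls did not hold when a library was left out, and the adjusted p is given in parentheses. Bet1l was lost without WT replicate 3 (0.0579), WT replicate 5 (0.0983), PB replicate 3 (0.0806), PB replicate 5 (0.0586) or PB replicate 8 (0.0581), Mia3 without WT replicate 3 (0.0874), WT replicate 5 (0.117), WT replicate 8 (0.112), PB replicate 5 (0.0664) or PB replicate 8 (0.0948), and Tfg without WT replicate 3 (0.0585), WT replicate 5 (0.114), WT replicate 8 (0.0903), PB replicate 3 (0.103) or PB replicate 8 (0.0986). Yipf2 was lost without WT replicate 3 (0.0561), WT replicate 5 (0.104), WT replicate 8 (0.0965), PB replicate 3 (0.0613) or PB replicate 8 (0.0506), Scfd1 without WT replicate 5 (0.0522), and Tmem39a without WT replicate 8 (0.0504). With no filter on low values, Bet1l (0.0591), Mia3 (0.0793) and Yipf2 (0.0827) also did not pass.

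Tethers and early Golgi Rabs were lower in 3 of 24 and higher in 1, against 7.47% lower and 24.9% higher over all tested genes. Gorasp1, which encodes the Golgi stacking protein GRASP65, fell from 28.7 ± 7.796 to 11.7 ± 1.76 FPKM (-1.19 ± 0.22, adjusted p = 0.00354), Uso1, the vesicle tether p115, fell from 97.5 ± 8.598 to 54.8 ± 14.2 FPKM (-0.85 ± 0.19, adjusted p = 0.00995), and Nbas had a log2 change of -0.62 ± 0.20. Rab6a rose from 49.8 ± 3.08 to 64.6 ± 2.61 FPKM (adjusted p = 0.04499), and this call did not hold with median-ratio scaling (0.305) or quantile normalization (0.213). None of the 14 TRAPP genes passed in either direction. Of 11 genes for Arf regulators and other Arfs, 2 fell, Gbf1, the exchange factor for Arf1 at the cis-Golgi (-0.76 ± 0.22, adjusted p = 0.0289), and Arfgap3, a GTPase-activating protein of COPI vesicles (-0.75 ± 0.13, adjusted p = 0.00257), and the 3 Arf genes given above rose. The counts over the 7 lists moved as those of the 42 did, to 54 lower and 4 higher with median-ratio scaling and to 61 and 4 with quantile normalization. Among all tested genes, 1762 of 10919 and 2362 of 10951 were lower with these scalings, and 2036 and 1694 higher. Without WT replicate 5, WT replicate 8, PB replicate 3 or PB replicate 8, 10, 11, 16 and 13 genes of the lists were lower, and 16 with no filter on low values. All tested genes lower then numbered 478, 526, 623, 647 and 745. The number of list genes higher was 4 without WT replicate 3, WT replicate 5, PB replicate 3 or PB replicate 5. The Nbas call was lost without WT replicate 3 (0.0664), WT replicate 5 (0.149), WT replicate 8 (0.09599), PB replicate 3 (0.0539), PB replicate 5 (0.06403) or PB replicate 8 (0.103), and with no filter (0.0864). Gbf1 did not pass without WT replicate 3 (0.0738), WT replicate 5 (0.0638) or WT replicate 8 (0.0856), nor with no filter (0.06698). Rab6a did not pass in any fit that left out a library, that is without WT replicate 3 (0.0969), WT replicate 5 (0.128), WT replicate 8 (0.0555), PB replicate 3 (0.0964), PB replicate 5 (0.144) or PB replicate 8 (0.0724).

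**Figure D4:**
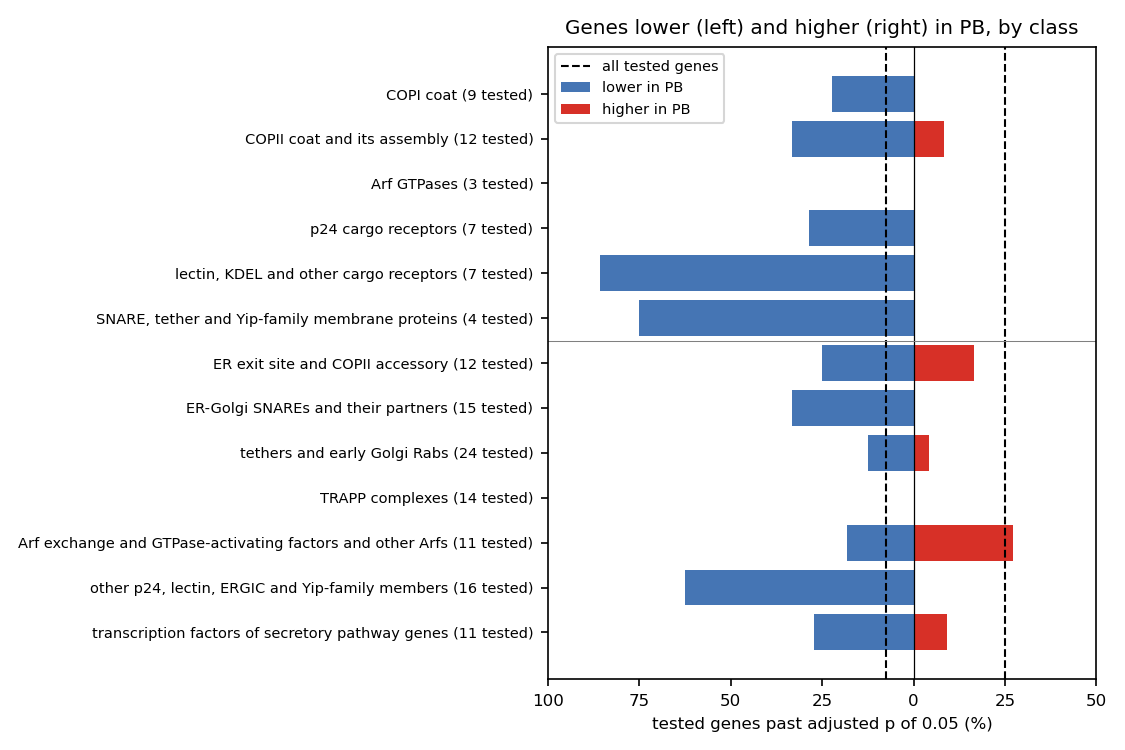
Percent of tested genes called lower (blue, to the left) and higher (red, to the right) in PB. The 6 classes of the 42 genes are above the grey line, and the 7 lists of other pathway genes and of transcription factors are below it. Dashed lines mark the shares over all tested genes, 7.47% lower and 24.9% higher. The cargo receptor class reaches farthest to the left with 6 of 7, and the Arf GTPase class and the TRAPP list have no bar.

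Transcription factors known to act on secretory pathway genes were measured in the same libraries. Xbp1, the factor made active by splicing in the unfolded protein response, was at 283, 302 and 302 FPKM in WT and 222, 244 and 236 FPKM in PB, with no overlap and without passing (-0.33 ± 0.11, adjusted p = 0.0533). It passed with the replicate block (adjusted p = 0.0448), with no filter (0.0445), with array weights (0.0205) and with median-ratio (0.00345) or quantile scaling (0.00573). Creb3l4, a membrane-bound factor of the CREB3 family that is abundant in prostate, was at 34.98, 45.3 and 51.3 FPKM in WT and 20.7, 27.4 and 16.5 FPKM in PB (-1.01 ± 0.21, adjusted p = 0.00756). Bhlha15 (Mist1), a factor of secretory cells, fell from 81.6 ± 25.5 to 21.6 ± 11.9 FPKM (-1.94 ± 0.37, adjusted p = 0.00455), and the stress factor gene Ddit3 (CHOP) fell from 236 ± 45.5 to 85.7 ± 33.96 FPKM (-1.53 ± 0.31, adjusted p = 0.00576). Atf6, Creb3, Creb3l1 and Creb3l2 did not pass, with log2 changes of -0.36 ± 0.17, -0.21 ± 0.13, 0.26 ± 0.34 and 0.26 ± 0.18. With median-ratio and quantile scaling Atf6 (0.0242 and 0.0128) and Creb3 (0.04099 and 0.0462) passed as lower. Tfe3 rose (0.57 ± 0.19, adjusted p = 0.0484), a call that was lost with median-ratio scaling (0.162), quantile normalization (0.228), a pseudocount of 5 (0.0543) and no filter (0.0824). It was also lost without WT replicate 3 (0.127), WT replicate 5 (0.159), PB replicate 3 (0.0502), PB replicate 5 (0.09498) or PB replicate 8 (0.131).

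Promoters were searched for 4 motifs of the unfolded protein response and of CREB-type factors, in windows from 250 bases before to 50 bases after the start site (RefSeq, GRCm38.p6), which were found for 36 of the 42 genes. Both strands were read for the motifs ERSE and ERSE-II (the ER stress response elements), UPRE (TGACGTGG, the unfolded protein response element) and CRE (TGACGTCA, the cyclic AMP response element). ERSE, ERSE-II and the reversed UPRE share the letters CCACG, so matches to them can overlap. UPRE letters were present for 6 of the 36 genes (16.7%) and for 193 of all 27025 genes of the table (0.714%), or 0.676% of its windows. The CRE was present for 1 gene, Cope, and for 2.03% of all genes, and ERSE and ERSE-II for 0 of the 36 and for 0.137% and 0.0444% of all genes. The 27025 genes include genes that were not tested here. They were not matched to the 36 for expression or base composition, and the difference in shares was not tested. A match is a description of the letters and shows neither binding nor a cause. The CRE match and the UPRE matches whose first base lies before every listed start site are shown in 60-base windows, to let the letters around them be compared, with the matched letters in capitals and each sequence written 5′ to 3′ on the strand of its gene:
Kdelr3, chr15:79516352-79516411, plus strand: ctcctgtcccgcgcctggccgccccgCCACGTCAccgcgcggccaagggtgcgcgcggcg
Copb1, chr7:114254675-114254734, minus strand: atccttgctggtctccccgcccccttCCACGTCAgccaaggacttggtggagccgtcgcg
Copb2, chr9:98563698-98563757, plus strand: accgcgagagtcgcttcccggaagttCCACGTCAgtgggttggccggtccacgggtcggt
Sec24d, chr3:123267444-123267503, plus strand: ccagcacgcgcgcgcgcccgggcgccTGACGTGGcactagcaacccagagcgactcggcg
Cope, chr8:70302531-70302590, plus strand: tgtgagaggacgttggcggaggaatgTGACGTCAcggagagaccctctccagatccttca

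Of the 6 genes with UPRE letters, Kdelr3 was called lower and the other 5 did not pass, with log2 changes of -0.46 (Copb2), -0.34 (Sec24d), -0.20 (Copb1), -0.064 (Arf1) and 0.12 (Sec23a). The UPRE letters start between -84 and 22 relative to the start sites, and Arf1 holds a single match that lies in the windows of both its listed start sites. Cope, with the CRE, was called lower. The windows of Copz2 and Sec24b hold none of the 4 motifs.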

How the data were processed

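Luminal cell RNA of 3 WT and 3 PB libraries was analysed. Per the labels' protocols, SMART-Seq v4 chemistry with random and oligo-dT primers gave the cDNA, and both Nextera XT and TruSeq DNA kits are named for the libraries. Per the submitters' processing notes, bcl2fastq 1.8.3, TopHat and Cufflinks were used with mm10, with no other version stated in the sources used here. The authors deposited 34535 transcripts per library as FPKM with confidence bounds, also in FPKM, and a coverage signal that is proportional to FPKM within a library.

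FPKM was summed per gene symbol. The 9 genes with a failed or skipped status in any library were left out, none of them among the 42. Genes whose mean over the 6 libraries reached 1 FPKM were tested as log2(FPKM + 1), a scale that understates changes of low genes, without rescaling, with limma 3.58.1 (intensity trend, two-sided) in R 4.3.3. Paralog ratios were tested by exact two-sided permutation over libraries, adjusted over 6 ratios. Exon overlaps were read from GENCODE M21 (GRCm38).

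The 42 genes, their classes, the other lists, tests and alternatives were chosen with earlier results of these data known. All 42 genes are named. Of the other lists, up to 3 called genes per direction are named by size, and Xbp1, Atf6, Creb3, Creb3l1, Creb3l2 and Creb3l4 always. Of the 42, values by library are given for called genes, the most abundant of each class and the paralogs. They are also given for Tmed2, Copb2, Sec13, Sec16a, Golga2, Lman2, Arf1 and Arf5, which did not pass. Same-numbered libraries deviated together weakly from their group means (correlations 0.26, 0.11, 0.18 for numbers 3, 5 and 8). Libraries with different numbers had correlations of -0.23 to -0.0064. Deviations from a group mean cancel within the group, so these correlations are not independent, and the labels state no pairing. The number was treated as a possible pairing and used as a block in an alternative fit. The other alternatives were pseudocounts of 0.1 and 5 FPKM, no filter or a mean of at least 5 FPKM, median-ratio scaling, quantile normalization, array weights and each library left out. A further marker list is not reported here.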

Additional observations from a re-analysis of the deposited data

How the results depend on the processing

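Of the 18 called genes among the 42, 8 kept the same call under all alternatives that could be fitted (14 at most): Copz2, Preb, Tmed3, Kdelr1, Kdelr3, Lman1, Mcfd2 and Yipf5. None of the 18 changed direction. The count of all genes higher in PB went from 2731 to 1761 with a filter of 5 FPKM and 1694 with quantile normalization, and of all genes lower from 818 to 1762 with median-ratio scaling and 2362 with quantile normalization. Leaving out 1 library gave 478 to 850 genes lower. Among the 42, 1 was higher, but 0 with a filter of 5 FPKM (Sec24b was not tested) and 0 with quantile normalization. The 17 lower became 29 with median-ratio scaling and 26 with quantile normalization, and 9 to 16 on leaving out 1 library. Both scalings added Copb2, Copz1, Sec13, Sec23b, Sec24d, Sar1a, Sec16a, Tmed2 and Golga2 to the genes lower. Median-ratio scaling alone also added Copa, Copb1 and Tmed9. Array weights gave 21 of the 42 lower, adding Copb2, Sec13, Sec23b and Tmed2. With no filter on low values 14 were lower, without Sec31a, Sec24a and Yif1b. Over all tested genes, 1096 of 10951 and 745 of 17920 were then lower. Of the genes of the other lists, 7 higher became 4 with median-ratio scaling, 4 with quantile normalization and 4 to 6 on leaving out 1 library. The 26 lower became 16 with no filter, 54 and 61 with these scalings, and 10 to 22 on leaving out 1 library. The replicate block gave 18 of the 42 lower and 1 higher, and 31 and 6 of the genes of the other lists. Apart from Sec31a, Sec13 and Tmed2 (given above), it changed no other call among the 42, and of the other genes named it changed those of Arf3 and Xbp1 (given above). The 6 paralog ratios, run with other pseudocounts, with each library left out and with the replicate block, kept their direction (with the block, differences of 0.51, -0.38, 0.14, -1.45, -0.36, -0.48 in the order Sec23a, Sec24d, Copg2, Copz2, Sar1b and Kdelr3 over their partners, exact p 0.25, the smallest possible, for all but Copg2 at 0.5).

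Some genes that did not pass changed sign. With median-ratio scaling and quantile normalization, the log2 changes were -0.20 and -0.30 for Copg2, -0.093 and -0.20 for Sec23a, -0.18 and -0.17 for Sec24c, -0.092 and -0.048 for Arf5, -0.018 and -0.062 for Tmed5. With quantile normalization, those of Creb3l1 and Creb3l2 were -0.22 and -0.032. On leaving out 1 library, those whose sign changed were Copg1 (-0.33 to 0.0076), Copg2 (-0.20 to 0.21), Sec24c (-0.078 to 0.17), Arf1 (-0.16 to 0.023), Arf5 (-0.015 to 0.26), and Creb3l1 (-0.14 to 0.54). The cause was not tested. The tables give no fragment counts, so counting error could not be computed.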
